A study of Homo sapiens with 97 samples.

Results

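RMRP, RPPH1, RN7SK, RN7SL1 and RN7SL2 encode the RNA cores of 4 abundant ribonucleoproteins. RMRP is the RNA of RNase MRP, RPPH1 that of RNase P, RN7SK is 7SK RNA, and RN7SL1 and RN7SL2 encode 7SL RNA. They were taken by gene name from every deposited count table, which gave 5 genes in 7 of the 60675 gene identifiers of each table, because RMRP and RPPH1 each have a second identifier. The question was whether these RNAs were labelled by the peroxidase placed in the mitochondrial matrix, and where else in the cell they were labelled.

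All of these RNAs are transcribed by RNA polymerase III and carry no poly(A) tail. RNase P cuts the 5′ leader from precursor tRNAs in the nucleus and RNase MRP cuts the precursor of ribosomal RNA in the nucleolus. The 2 enzymes share most of their proteins, and entry of both RNAs into mitochondria has long been debated, while human mitochondria hold an RNase P made of protein alone. 7SK RNA holds the transcription elongation factor P-TEFb inactive in the nucleus, together with HEXIM1, LARP7 and MEPCE. 7SL RNA is the scaffold of the signal recognition particle (SRP), which is assembled in part in the nucleolus and brings ribosomes that make secreted proteins to the endoplasmic reticulum.

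The study used APEX-seq in HEK293T cells, a human embryonic kidney line. Cells stably expressed APEX2, an engineered peroxidase, fused to a targeting sequence, and RNA near the enzyme was biotinylated for 1 min and pulled down. Labelled cells received biotin-phenol and hydrogen peroxide; unlabelled cells carried the same construct and received biotin-phenol without peroxide, so the unlabelled libraries hold what the pulldown recovers without labelling. There were 2 replicates in each group, described by the submitters as biological.
In poly(A)-selected RNA 9 constructs were compared: NLS (nucleus), NIK (nucleolus), LMA (nuclear lamina), NucPore (nuclear pore), NES (cytosol), ERM (cytosolic face of the endoplasmic reticulum), KDEL (its lumen), OMM (outer mitochondrial membrane) and MITO (matrix). MITO cells also gave total RNA, prepared without the poly(A) selection, and 1 technical repeat of a labelled poly(A) library. NES and OMM cells were also treated with cycloheximide or puromycin, which stop translation, or with CCCP, which uncouples mitochondria, and with nocodazole, which depolymerises microtubules, for 3, 6, 9 or 30 min or 2 h. Nuclear and cytosol fractions of HEK293T cells were sequenced from poly(A) RNA without a pulldown.

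The 97 libraries held 2835969 to 76714068 counted reads, and the 4 MITO total RNA libraries 2835969 to 7883579. Levels are in CPM, the count divided by all counted reads of the library and scaled by 1000000. A count of 0 allows up to 3 counts, which is 0.0391 to 1.06 CPM depending on the library, and this covers counting error only. A gene is called changed where edgeR's quasi-likelihood test gave an adjusted p under 0.05 over all genes tested, and fold changes are on the log2 scale with their standard error (SE). Libraries in which over 2% of the expressed genes (mean over libraries 5 CPM or more) had no count are named low-complexity libraries where a result rests on them. In these bulk libraries fewer labelled RNA molecules per cell and fewer labelled cells cannot be told apart.

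The sequences of RMRP and RPPH1 are shown first, because the enzymes share proteins but the RNAs can be counted apart. Both come from GENCODE 29 transcripts on GRCh38: RMRP is chr9:35657751-35658018 (minus strand, 268 bases, whole), and RPPH1 is chr14:20343075-20343407 (minus strand, 333 bases, of which bases 1 to 300 are shown). Capitals mark the longest stretch that both hold.
RMRP: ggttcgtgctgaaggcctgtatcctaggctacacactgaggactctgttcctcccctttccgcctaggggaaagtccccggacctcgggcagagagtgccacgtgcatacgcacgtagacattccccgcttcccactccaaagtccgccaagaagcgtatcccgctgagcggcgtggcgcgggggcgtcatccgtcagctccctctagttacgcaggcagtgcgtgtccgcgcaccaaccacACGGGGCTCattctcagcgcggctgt
RPPH1: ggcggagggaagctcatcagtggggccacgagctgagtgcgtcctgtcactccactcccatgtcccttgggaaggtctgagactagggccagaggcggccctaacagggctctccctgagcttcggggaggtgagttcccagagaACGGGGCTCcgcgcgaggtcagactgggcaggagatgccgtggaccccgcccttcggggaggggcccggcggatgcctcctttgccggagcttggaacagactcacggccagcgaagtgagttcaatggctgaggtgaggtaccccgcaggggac
The shared stretch is ACGGGGCTC, 9 bases long, at positions 243 to 251 of RMRP and 146 to 154 of RPPH1 counted from the 5′ end. Over the whole alignment the pair was 52.4% identical, so a read of 75 bases, the length given in the labels, tells them apart.

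The near-identity of the 7SL genes decides what their counts mean. RN7SL1 and RN7SL2 were 98.3% identical. RN7SL3, which lies 8635 bases from RN7SL2, was 97.7% identical to RN7SL1 and 96% to RN7SL2.

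7SK RNA opens with the hairpin that binds HEXIM1, and its repeated GATC, known to take part in that binding, is in capitals in bases 1 to 100 of RN7SK at chr6:52995620-52995950 (plus strand, 331 bases).
RN7SK: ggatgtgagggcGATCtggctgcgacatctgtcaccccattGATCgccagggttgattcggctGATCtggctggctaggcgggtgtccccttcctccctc
All 3 copies of GATC in the RNA lie in the stretch shown. None of the 5 genes holds a long run of A: the longest was 4 bases in RN7SL1 and RN7SL2, 3 in RMRP and RN7SK and 2 in RPPH1.

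Reads were counted for 4 of the 5 genes. Summed over the tables RN7SL2 had 150545 counts, RN7SK 145713, RPPH1 6401 and RMRP 4487. RN7SL1 had 0 counts in every column of every table, and so had the second identifiers of RMRP and RPPH1. Of the 225 stretches of 75 bases in RN7SL1, 225 also occur in AL139099.4, a second gene at the same place, and 131 in RN7SL2. Of the 226 stretches in RN7SL2, 190 occur in another annotated gene. The RN7SL2 counts therefore stand for reads that the authors' counting assigned to RN7SL2, and not for all 7SL RNA.
RPPH1 was counted under AL355075.4 (chr14:20343048-20343685, minus strand, 638 bases), which encloses the ribozyme and overlaps the start of PARP2 on the other strand. The strand setting of the counting is not given in the sources used here. RN7SL2 lies inside AL627171.2 on the same strand, and RN7SL1 inside RPS29 on the other strand. Of the named copies, 288 of 681 RN7SL pseudogenes, 93 of 293 RN7SK pseudogenes, 1 of 2 RPPH1 pseudogenes and 0 of 1 RMRP pseudogene had any count. Together the RN7SL pseudogenes summed to 26145 counts and the RN7SK pseudogenes to 4357, and the leading copies were RN7SL832P with 3488 and RN7SKP80 with 603.

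In MITO total RNA none of the 4 counted RNAs was called as labelled. RMRP, the RNA of RNase MRP, had 449 and 574 counts in the labelled libraries and 594 and 924 in the unlabelled ones, which is 76.2 and 72.8 CPM against 209 and 282 CPM. RPPH1, the RNA of RNase P, had 995 and 693 counts against 758 and 1361, which is 169 and 87.9 CPM against 267 and 415 CPM. Both labelled libraries lay below both unlabelled ones for each RNA on this scale. How many of all genes separated this way was not counted.
The CPM scale carries the labelling of the mitochondrial transcripts themselves: mitochondrially encoded genes took 83.0% and 65.0% of the labelled counts and 27.7% and 26.6% of the unlabelled ones. In CPM of nuclear-encoded counts alone RMRP stood at 449 and 208 in labelled and 290 and 384 in unlabelled libraries, and RPPH1 at 996 and 251 against 370 and 566. On that scale the labelled libraries lay on either side of the unlabelled ones for both RNAs. The fitted log2 fold change was 0.02 (SE 0.48, adjusted p = 0.999) for RMRP and 0.47 (SE 0.75, adjusted p = 0.851) for RPPH1. These errors are wide. A fold of the size of the SE in either direction would not have been called, and larger folds could be missed. In counts simulated for this contrast, over genes of mixed abundance, 3 of 70 genes changed 2-fold were called. So were 24 of 64 changed 4-fold and 43 of 66 changed 8-fold. Each simulated gene had the same mean level in poly(A) and in total RNA, which these RNAs do not. The rates thus describe the contrast in general and not these RNAs.

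**Figure D1:**
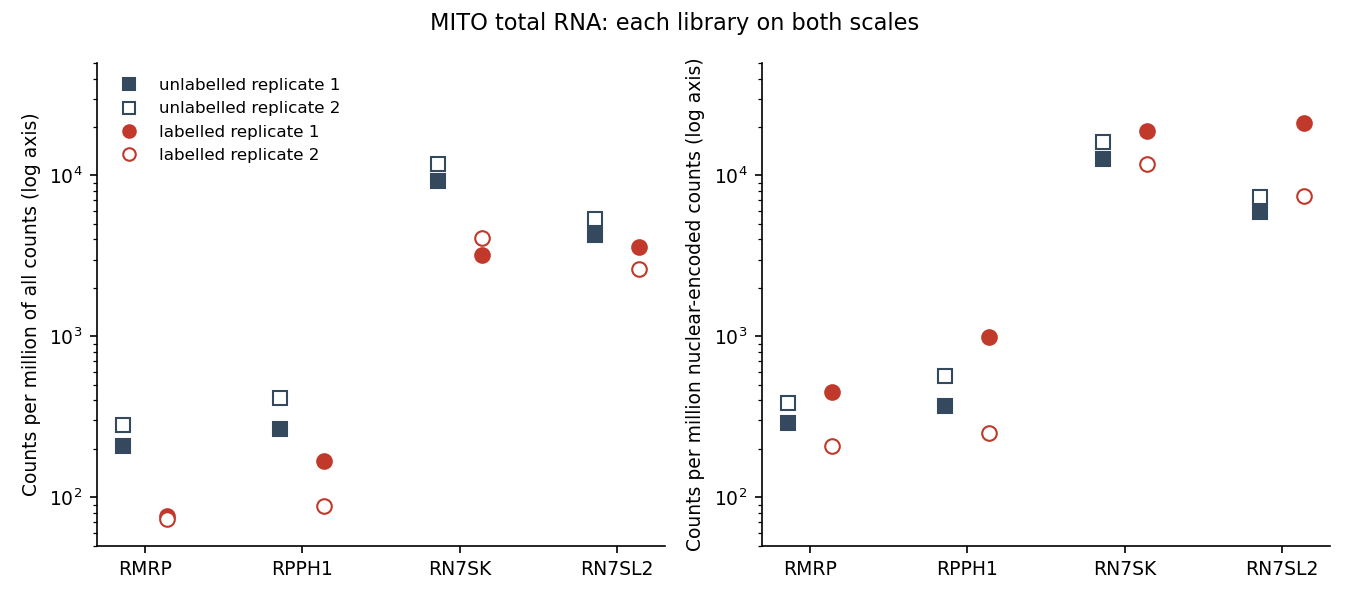
Level of RMRP, RPPH1, RN7SK and RN7SL2 in the 4 MITO total RNA libraries, on log axes, in CPM of all counts (left) and in CPM of nuclear-encoded counts alone (right); each point is 1 library. On the left both labelled libraries lie below both unlabelled ones for all 4 RNAs. With library totals alone the median log2 fold change of all genes was -1.49. On the right the groups overlap, except for RN7SL2. It stands at 21281 and 7461 in the labelled and 5904 and 7356 in the unlabelled libraries.

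RN7SK, a nuclear RNA, gave the same picture as RMRP and RPPH1. It had 18871 and 32350 counts in labelled and 26082 and 38607 in unlabelled libraries, or 3203 and 4103 CPM against 9197 and 11785 CPM, and 18882 and 11738 against 12719 and 16055 CPM of nuclear-encoded counts. Its log2 fold change was 0.15 (SE 0.57, adjusted p = 0.948). RN7SL2 had 21268 and 20564 counts against 12108 and 17690, or 3610 and 2608 CPM against 4269 and 5400 CPM. It was the only one of the 4 whose labelled libraries both exceeded the unlabelled ones in CPM of nuclear-encoded counts, at 21281 and 7461 against 5904 and 7356, and the second labelled library did so narrowly. Its log2 fold change was 1.18 (SE 0.41, unadjusted p = 0.0137, adjusted p = 0.325). RN7SL3, its near-identical neighbour, had 1090 and 1167 counts against 1106 and 1148 and a log2 fold change of 0.64 (SE 0.42, adjusted p = 0.592).

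The members' count of 0 of 4 called by edgeR stood beside a background of 0.63% of all genes; 1 of the 4, RN7SL2, had an unadjusted p under 0.05, and DESeq2 called 0. Across all genes 92 were called higher and 2 lower, and the higher ones included 20 of the 27 mitochondrially encoded genes tested and 72 others. MT-ND6, encoded on the mitochondrial light strand, rose by 6.43 on the log2 scale (SE 0.72, adjusted p = 0.00122) and MT-CO1 by 4.77 (SE 0.70, adjusted p = 0.00757), so labelling in the matrix was detected in the same libraries. NEAT1, a nuclear long noncoding RNA, was also called higher, by 2.43 (SE 0.32, adjusted p = 0.00347).

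The value of RN7SL2 rested on labelled replicate 1, a low-complexity library in which 6.72% of expressed genes had no count. Without it the log2 fold change was 0.21 (adjusted p = 0.886), and without labelled replicate 2 it was 1.76 (adjusted p = 0.0174); with no filter on low counts it was 1.16 (adjusted p = 0.00235). Leaving out labelled replicate 1 moved RMRP to -0.65, RPPH1 to -0.85 and RN7SK to -0.25, none of them called. Scaling by library totals alone moved the median of all genes to -1.49, and there RMRP stood at -1.72, RN7SK at -1.52, RPPH1 at -1.41 and RN7SL2 at -0.64, none of them called.

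**Figure D2:**
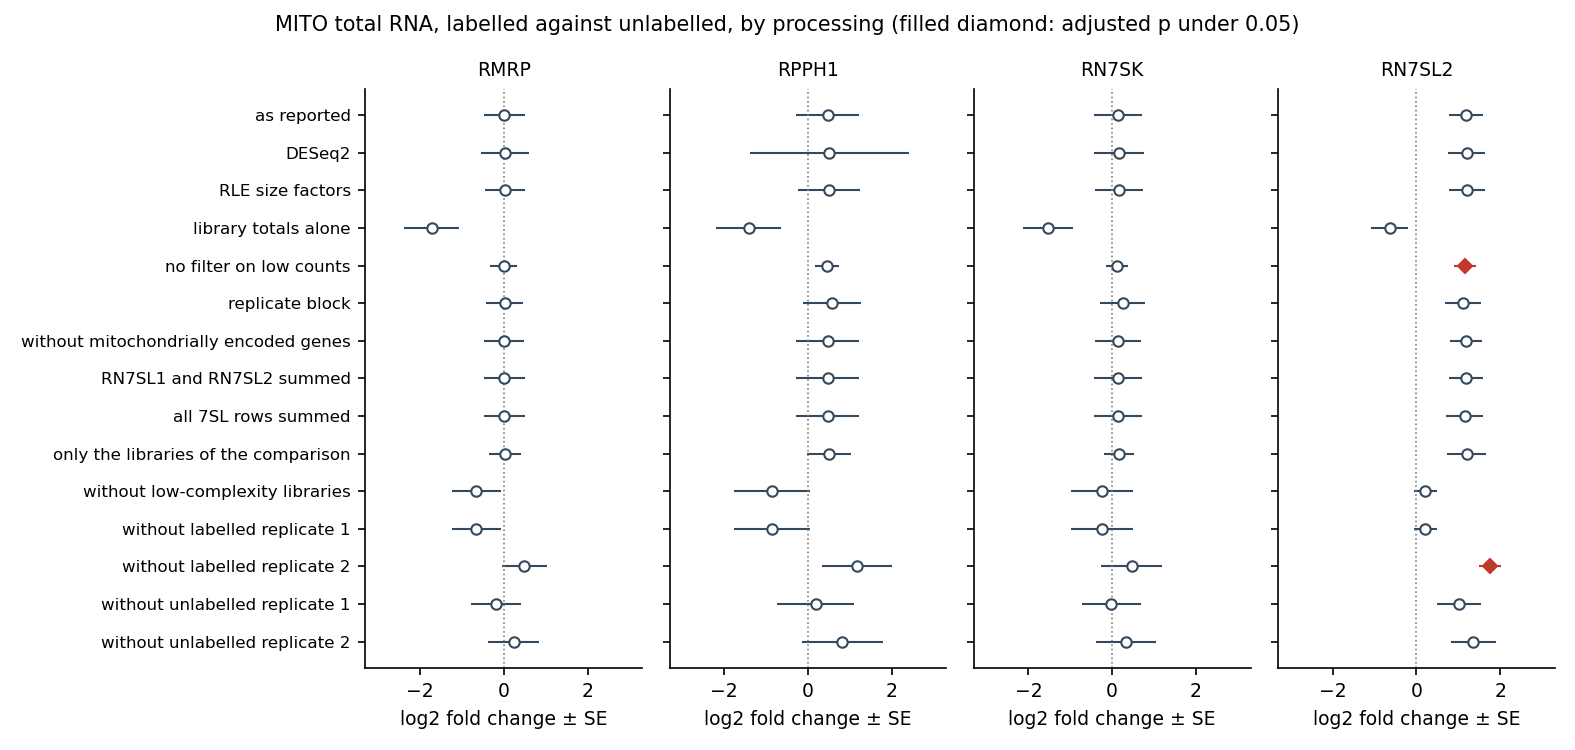
Log2 fold change of labelled over unlabelled MITO total RNA for RMRP, RPPH1, RN7SK and RN7SL2 under each processing (points, with SE bars; filled diamonds have an adjusted p under 0.05). RMRP, RPPH1 and RN7SK are hollow circles throughout, and RN7SL2 ranges from -0.64 with library totals alone to 1.76 without labelled replicate 2.

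No mRNA of the proteins that bind these RNAs was called by edgeR in MITO total RNA, where 0.63% of all genes were. Of the 11 mRNAs of RNase P and MRP proteins 0 were called (median log2 fold change -0.55), of 8 for SRP proteins and the SRP receptor 0 (median -0.25), of 7 for the 7SK particle and P-TEFb 0 (median -0.42), and of 4 for the protein-only RNase P and RNA import 0 (median -0.43), where the median of all genes was 0.00. Among 27 other small noncoding RNAs, such as spliceosomal, Y and small nucleolar RNAs, 0 were called and the median was 0.21. Their summed level was 1114 and 1020 CPM in labelled and 2211 and 3977 CPM in unlabelled libraries, the same direction as the 4 members on the CPM scale.

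All 4 counted RNAs were far lower in the poly(A) libraries than in the total RNA libraries of MITO cells. In unlabelled MITO libraries RN7SK had 163 and 1707 counts in poly(A) RNA (3.17 and 22.3 CPM), RN7SL2 had 961 and 2029 (18.7 and 26.4 CPM), RPPH1 had 1 and 92, and RMRP had 0 and 15, although these libraries held 51353018 and 76714068 counts in all. All 4 members were higher in total than in poly(A) RNA, against 1.96% of all genes called in either direction: RMRP by 11.37 (SE 0.78, adjusted p = 4.06e-06), RN7SK by 10.06 (SE 0.85, adjusted p = 2.19e-05), RPPH1 by 9.40 (SE 1.08, adjusted p = 6.14e-04) and RN7SL2 by 8.07 (SE 0.56, adjusted p = 4.06e-06). Of the 49 other small noncoding RNAs listed 27 passed the filter on low counts, which an RNA high in total RNA alone can pass, and as a description 21 of these were called higher (median 10.66), among them SNORD3A (U3, 8.75), RNU5E-1 (13.89) and RNU5A-1 (13.35). No mRNA of the 4 protein lists was called. The poly(A) and the total RNA libraries were prepared separately, so the part of the selection itself was not tested.

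In the matrix, poly(A) RNA gave RN7SK at 29 and 40 counts labelled (3.11 and 2.20 CPM) against 3.17 and 22.3 CPM unlabelled, and RN7SL2 at 10.8 and 7.47 CPM against 18.7 and 26.4 CPM. The technical repeat of labelled replicate 2 held 277 counts of RN7SK, or 21.2 CPM, where its partner held 40 counts, or 2.20 CPM, and 17.8 CPM of RN7SL2 where its partner held 7.47. RMRP had 0, 1 and 0 counts in these 3 labelled libraries and RPPH1 had 0, 0 and 0. The repeat and its partner thus stood farther apart in RN7SK, as a ratio, than the 2 unlabelled replicates. The difference between the labelling effects in poly(A) and in total RNA was called for 0 of the members and for 0% of all genes by edgeR, where 1 of the 4 members, RN7SL2, had an unadjusted p under 0.05 (-1.44, SE 0.59, unadjusted p = 0.0314, adjusted p = 1.00) and DESeq2 called 0.

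Among the 9 constructs the 1 member called was RN7SL2 in the nucleus. In NLS cells it had 2638 and 710 counts labelled (112 and 28.8 CPM) against 59 and 82 unlabelled (1.31 and 2.29 CPM). Both labelled libraries were above both unlabelled ones, the log2 fold change was 5.23 (SE 1.34, adjusted p = 0.0142), and 5.2% of all genes were called in that contrast. The direction and the call held without any 1 of the 4 libraries, with values from 3.91 to 5.86. The NLS unlabelled group had the lowest mean of the 9 unlabelled groups, 1.80 CPM, and against the unlabelled libraries of all 9 constructs the value was 2.19 (adjusted p = 0.0176). In the authors' deposited table, whose reference group is not explained, RN7SL2 in NLS has a log2 fold change of 1.12 with a p-value of 0.643.

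RN7SL2 in the nucleus did not move alone. RN7SL3 had 115 and 39 counts labelled and 0 and 0 unlabelled in NLS cells. The summed level of the other small noncoding RNAs was 28.6 and 17.9 CPM labelled and 3.75 and 5.83 CPM unlabelled, although 0 of the 20 tested were called. The nuclear landmark RNAs MALAT1 (3.65, SE 0.52, adjusted p = 2.19e-05) and NEAT1 (2.74, SE 0.43, adjusted p = 7.23e-05) were called higher. Of the mRNAs for SRP proteins and the receptor 0 of 8 were called (median -0.54), and of the 7 for the 7SK particle 1 was, CCNT2 (1.54, SE 0.33, adjusted p = 0.00332). The part of other small RNAs in the RN7SL2 value was not tested.

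In the other 8 constructs RN7SL2 was not called. Labelled means ran, in descending order, from NLS (70.3 CPM) through OMM (57.5), LMA (48.7), NIK (25.7), ERM (18.5), KDEL (17.6), NucPore (11.0) and MITO (9.15) to NES (9.12). Only between LMA and NIK did neighbours in that order have labelled libraries that did not overlap. Unlabelled means, with the constructs in the same order, were 1.80, 44.8, 154, 4.58, 8.97, 25.5, 7.30, 22.6 and 15.9 CPM. The order is thus one of level in the pulldown and not of labelling. In the nucleolus, where part of the SRP is assembled, RN7SL2 had 468 and 712 counts labelled (17.8 and 33.6 CPM) against 54 and 136 (2.34 and 6.82 CPM). These groups did not overlap, and the log2 fold change was 2.42 (SE 1.19, adjusted p = 0.265). Both labelled NIK libraries were of low complexity. At the endoplasmic reticulum membrane, where the SRP delivers ribosomes, RN7SL2 had 9.15 and 27.9 CPM against 8.36 and 9.58 CPM (1.04, SE 1.14, adjusted p = 0.696). ERM labelled replicate 1 was also of low complexity. In NucPore cells replicate 1 held 1 count labelled and 2 unlabelled where replicate 2 held 867 and 361. Both replicate 1 libraries were of low complexity. The value of 0.60 became -6.86 (called) without labelled replicate 2 and 7.29 (called) without unlabelled replicate 2.

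**Figure D3:**
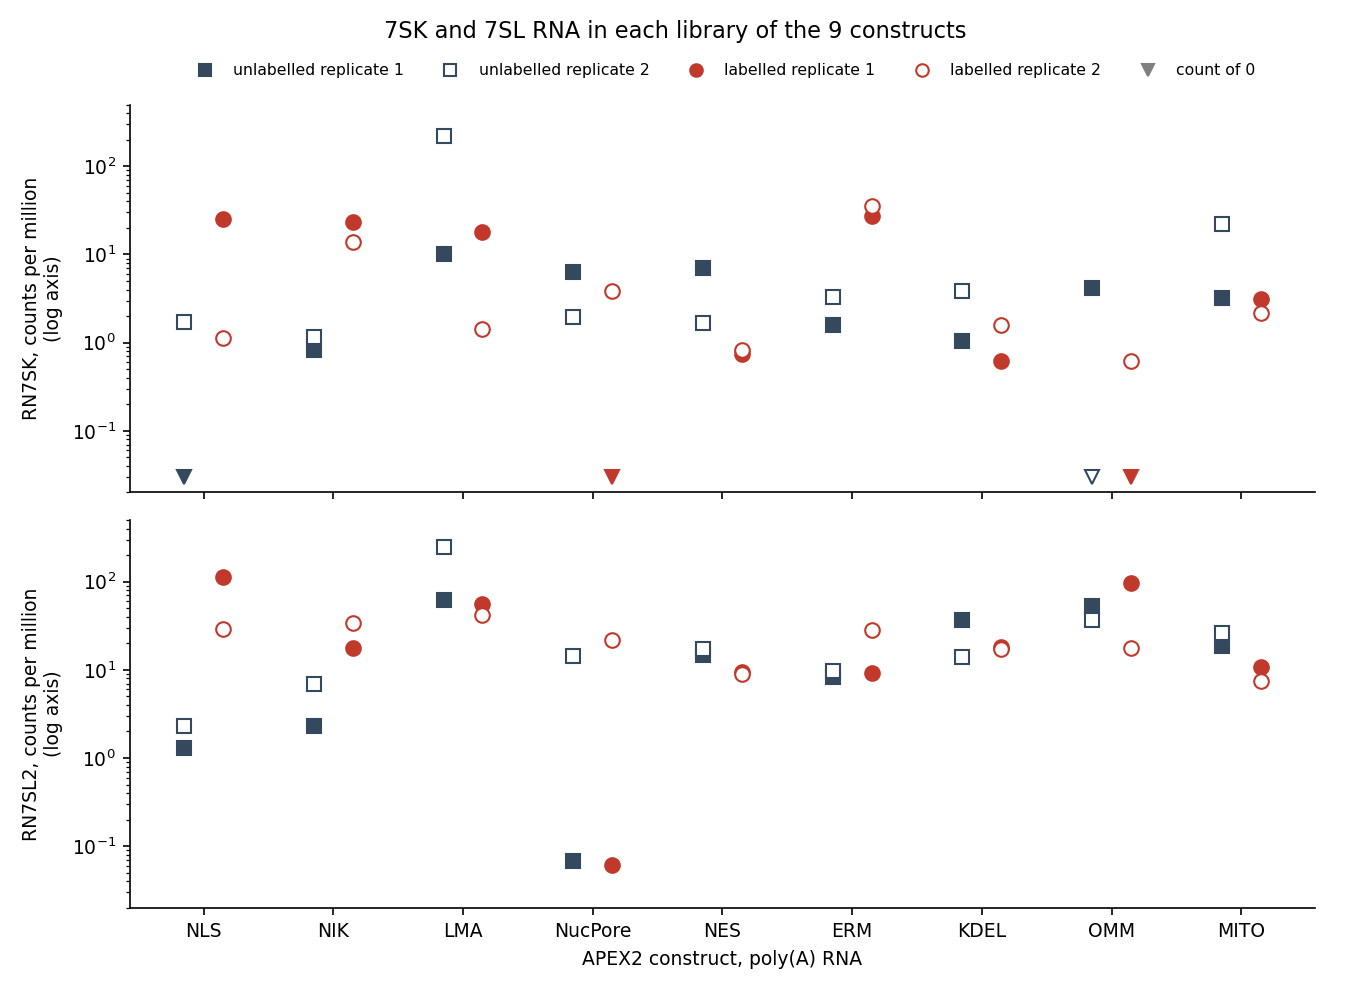
CPM of RN7SK (top) and RN7SL2 (bottom) in each of the 36 poly(A) libraries of the 9 constructs, on log axes; circles are labelled and squares unlabelled libraries, and triangles at the bottom are libraries with a count of 0. RN7SL2 in NLS separates labelled (112 and 28.8 CPM) from unlabelled (1.31 and 2.29 CPM), and LMA unlabelled replicate 2 is the highest unlabelled library for both RNAs.

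RN7SK was not called in any of the 9 constructs. Its log2 fold change was above 0 in 3, NIK at 4.18 (SE 1.97, adjusted p = 0.246), NLS at 3.88 (SE 1.93, adjusted p = 0.284) and ERM at 3.70 (SE 1.91, adjusted p = 0.237), and below 0 in the other 6. In the nucleolus it had 611 and 295 counts labelled (23.3 and 13.9 CPM) against 19 and 23 (0.822 and 1.15 CPM), without overlap, but both labelled libraries were of low complexity. In the nucleus, its main site, it had 592 and 28 counts labelled (25.1 and 1.13 CPM) against 0 and 61 (0 and 1.70 CPM), so the second labelled library lay below the second unlabelled one.
In ERM cells RN7SK had 620 and 952 counts labelled (27.5 and 35.7 CPM) against 50 and 59 (1.58 and 3.29 CPM), the highest labelled mean of the 9 constructs, 31.6 CPM, and no overlap with NIK, the next in order. ERM labelled replicate 1 was a low-complexity library. Without the low-complexity libraries, which leaves 1 labelled ERM library, the value was 3.91. In ERM RN7SK was called by edgeR when only the ERM libraries were fitted (3.63, adjusted p = 0.0256). It was also called against the unlabelled libraries of all 9 constructs (2.97, adjusted p = 0.0279). In the authors' deposited table RN7SK has 2.93 in ERM with a p-value of 0.0605, 2.15 in NIK, 1.66 in NLS and -2.51 in NES.

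RN7SK was at the other end in the lamina construct, and there 1 library set the value. LMA unlabelled replicate 2 held 6292 counts of RN7SK (221 CPM) where replicate 1 held 280 (10.1 CPM), and the labelled libraries held 463 and 44 (18.0 and 1.41 CPM). The log2 fold change was -3.71 (SE 1.91, adjusted p = 0.256), and -0.26 without that library. The same library had the highest level of the 36 for each of the 4 members: RN7SL2 at 246 CPM, RMRP at 42.8 CPM and RPPH1 at 34.6 CPM. It also had 138 CPM of the other small noncoding RNAs, where the next highest unlabelled library had 25.5 CPM. LMA labelling values of the 4 members were RN7SK -3.71, RPPH1 -4.57, RMRP -4.98 and RN7SL2 -1.78. Against the unlabelled libraries of all 9 constructs RN7SK stood at 1.12 and RN7SL2 at 1.58. No fold is given there for RMRP and RPPH1, because some of the unlabelled groups, such as NLS and NES, held 0 counts of them.

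RMRP and RPPH1 were too scarce in the poly(A) libraries of the 9 constructs for most contrasts. RMRP had 0 counts in 9 of 18 labelled and 14 of 18 unlabelled libraries, and RPPH1 in 13 and 8. Outside LMA no unlabelled library of the 9 constructs held more than 15 counts of RMRP. Labelled RMRP counts were 1 and 64 in NIK, the nucleolar construct and the RNA's known site, 20 and 0 in NLS, 32 and 12 in LMA and 2 and 7 in KDEL, against 0 and 0 unlabelled in NIK, NLS and KDEL. In NIK nearly all of the labelled counts came from 1 library. The other labelled library held 1 count, within the 3 counts that a count of 0 allows. Both labelled NIK libraries were of low complexity. RPPH1 reached 61, 50 and 41 counts in 1 labelled library each of ERM, NLS and LMA with 0 in the other replicate.

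**Figure D4:**
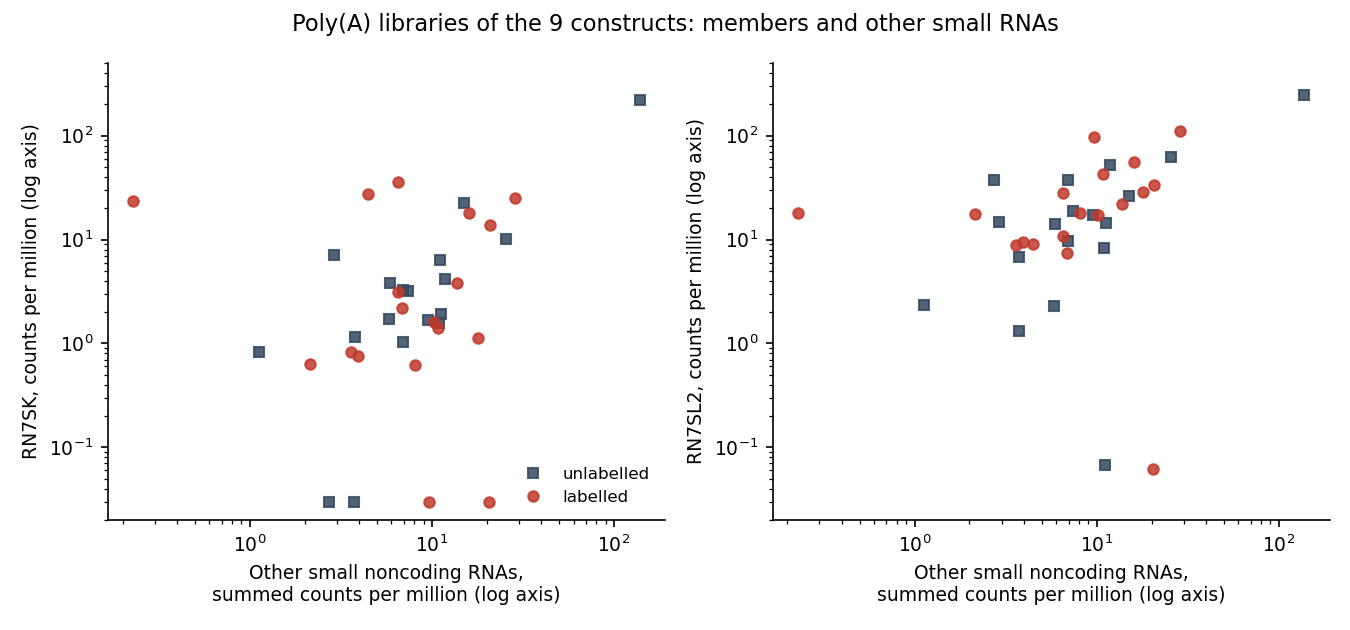
CPM of RN7SK (left) and RN7SL2 (right) against the summed CPM of the other small noncoding RNAs in the 36 poly(A) libraries of the 9 constructs, on log axes; each point is 1 library and counts of 0 are drawn at the bottom. LMA unlabelled replicate 2 stands alone at the upper right with 138 CPM of other small RNAs.

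The partner mRNAs, which carry poly(A) tails, were called most often in ERM labelling. Of the 7 for the 7SK particle and P-TEFb 3 were higher there and 0 lower: CCNT1 (1.64, SE 0.26), CCNT2 (1.22, SE 0.33), the 2 cyclin T subunits of P-TEFb, and MEPCE (0.87, SE 0.26), the enzyme that caps 7SK RNA. Of the 11 for RNase P and MRP 1 was higher, RPP14 (0.88), and 4 were lower, led by POP7 (-2.81), RPP30 (-1.34) and RPP25L (-3.57). Of the 8 for the SRP 1 was higher, SRPRB (1.15), the membrane-anchored subunit of the receptor, and 3 were lower, SRP14 (-1.30), SRP9 (-1.37) and SRP54 (-0.96). These counts stood beside 12.9% of all genes called in ERM. In LMA labelling CCNT2 (2.37), CCNT1 (1.72) and RPP14 (1.25) were higher and SRPRB (-1.0) and SRP68 (-0.74) lower, in OMM labelling SRPRA (0.94) and SRPRB (0.78) higher and SRP54 (-1.14) lower, and in NES labelling SRP9 (-1.57) and SRP14 (-0.85) lower. Of the 4 for the protein-only RNase P and RNA import HSD17B10 was lower in NLS (-1.13), LMA (-1.46) and ERM (-1.48), TRMT10C lower in NES (-1.64) and ERM (-1.23), and PNPT1 higher in OMM (1.04). In NIK, NucPore, KDEL and MITO labelling 0 of the 30 mRNAs of these lists were called by edgeR, and 5, 3, 0 and 3 of them had an unadjusted p under 0.05.

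Of 36 member tests in the 9 constructs 1 was called, 5 had an unadjusted p under 0.05, and DESeq2 called 5, of which 4 were RPPH1 with 1 group at 0. Besides the 5.2% in NLS, 5.24% of all genes were called in NIK, 7.68% in LMA, 3.88% in NES, 12.9% in ERM, 4.99% in OMM and 1.05% in MITO, and the members called there were 0 of 4 each. In NucPore and KDEL 0% of all genes were called by edgeR; there 1341 and 46 genes had an unadjusted p under 0.05, and DESeq2 called 37 higher and 190 lower in NucPore and 0 in KDEL. A lack of member calls in those 2 contrasts thus says little.

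The labelling effects of pairs of constructs were compared directly in 5 contrasts. RN7SL2 was the 1 member called, higher in NLS than in NES labelling by 6.12 (SE 1.72, adjusted p = 0.04997), where NES labelled libraries held 9.38 and 8.86 CPM and unlabelled ones 14.7 and 17.1 CPM; 2.28% of all genes were called. The adjusted p lies at the threshold and was 0.0532 with library totals alone. RN7SK differed by 6.48 between NLS and NES (SE 2.67, adjusted p = 0.29) and by 6.30 between ERM and NES (SE 2.65, adjusted p = 0.224), where 3.84% of all genes were called. For NIK against NLS 0.534% of all genes were called, for OMM against NES 1.72% and for ERM against KDEL 6.94%, with 0 members in each; RN7SL2 stood at -2.80 (SE 1.63, adjusted p = 0.419) for NIK against NLS and RN7SK at 4.86 (SE 2.57, adjusted p = 0.338) for ERM against KDEL. Over the 20 member tests 4 had an unadjusted p under 0.05 and DESeq2 called 2.

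In the fractions both members that could be tested were higher in the nucleus. RN7SK had 622 and 151 counts in the nuclear fraction (13.8 and 3.52 CPM) against 41 and 22 in the cytosol (1.17 and 0.537 CPM), a log2 fold change of 2.83 (SE 0.59, adjusted p = 0.00111). RN7SL2 had 5674 and 3342 counts (126 and 77.9 CPM) against 1039 and 1058 (29.7 and 25.8 CPM), a log2 fold change of 1.34 (SE 0.24, adjusted p = 4.23e-04). Neither pair of groups overlapped. The background was wide, 62% of all genes called, with a median of 0.11. RMRP had 9 and 0 nuclear and 0 and 0 cytosol counts, RPPH1 had 1 and 3 against 0 and 4, and neither passed the filter on low counts.
Leaving out nuclear replicate 1 lowered RN7SK to 1.42 and RN7SL2 to 0.85, both still called, and with no filter on low counts RN7SK was not called (2.87, adjusted p = 0.0992). RN7SL3 rose by 2.84 (SE 0.58, adjusted p = 0.00104), and AL627171.2, which encloses RN7SL2, stood at -0.36 (SE 0.48, adjusted p = 0.529).

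The mRNAs of the partner proteins lay mostly the other way in the fractions. Of 11 mRNAs for RNase P and MRP proteins 0 were higher in the nucleus and 8 lower, led by POP7 (-1.52), RPP30 (-1.10) and POP4 (-1.10). Of 8 for the SRP, 6 were lower, led by SRP9 (-1.63), SRP14 (-1.33) and SRP68 (-0.84), and 2 higher, SRPRA (0.94) and SRPRB (0.62), the subunits of the membrane-bound receptor. Of 7 for the 7SK particle 3 were higher, CCNT2 (1.10), HEXIM1 (1.07) and CCNT1 (0.50), and 1 lower, LARP7 (-0.64). Of 4 for the protein-only RNase P and RNA import, KIAA0391 (0.67), its nuclease subunit, was higher and HSD17B10 (-1.04), TRMT10C (-0.79) and PNPT1 (-0.59) were lower. Of 9 other small noncoding RNAs tested 8 were higher in the nucleus (median 3.92), led by SCARNA12 (5.08), SCARNA13 (3.92) and SNORA73B (2.82). Their summed level was 52.4 and 30.3 CPM in nuclear and 3.86 and 2.83 CPM in cytosol libraries, which is the direction of RN7SK and RN7SL2. The 9 are those of 49 listed RNAs that passed the filter on low counts, which an RNA high in 1 group alone can pass, so their count is a description.

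NES and OMM cells with translation stopped or mitochondria uncoupled gave 6 labelling contrasts. By CPM both labelled libraries lay below both unlabelled ones for RN7SK in all 6. How many of all genes did so was not counted, so this is a description. RN7SK was called lower in 1 of the 6. In OMM cells with cycloheximide it had 0 and 13 counts labelled (0 and 0.360 CPM) against 448 and 108 (14.9 and 2.97 CPM), a fall of 5.27 (SE 1.23, adjusted p = 0.00508), where 17.7% of all genes were called. Both unlabelled libraries there were of low complexity, and with only the 4 libraries of the contrast fitted the adjusted p was 0.317. Leaving out labelled replicate 2 leaves a labelled library with a count of 0 and a fitted value of -11.41, and the other leave-outs gave -6.06 to -3.76, all called.
The 5 other contrasts gave -3.10 in NES with puromycin (adjusted p = 0.092), -3.0 in OMM with CCCP (adjusted p = 0.113), -2.02 in NES with cycloheximide (adjusted p = 0.211), -1.48 in OMM with puromycin (adjusted p = 0.67) and -1.47 in NES with CCCP (adjusted p = 0.453). In NES cells with puromycin RN7SK had 278 and 99 counts labelled (6.77 and 2.94 CPM) against 1932 and 771 (58.3 and 21.7 CPM), and RPPH1 had 18 and 6 against 277 and 157. The summed level of the other small noncoding RNAs was 1.41 to 3.81 CPM over the 12 labelled libraries and 4.38 to 23.6 CPM over the 12 unlabelled ones, which did not overlap. The sum was thus lower in the labelled libraries, but of the 15 of these RNAs that were tested 0 were called lower in any of the 6 contrasts, and their median log2 fold change ran from -1.59 in OMM with puromycin to 4.51 in OMM with cycloheximide. Their part in the RN7SK values was not tested.

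RN7SL2 followed less closely in the drug libraries: 0 of 6 contrasts were called, with values from -2.38 (NES, puromycin) to 0.08 (OMM, cycloheximide), and its groups overlapped in 4 of the 6. It lay below both unlabelled libraries with puromycin, at 9.76 and 6.07 CPM against 63.1 and 16.2 CPM in NES and at 15.2 and 10.6 CPM against 42.5 and 51.2 CPM in OMM. All-gene percentages were 15.7% (NES, cycloheximide), 7.82% (NES, puromycin), 8.36% (NES, CCCP), 2.13% (OMM, puromycin) and 6.84% (OMM, CCCP), and for the differences OMM against NES 13.5% with cycloheximide, 0.112% with puromycin and 0.00933% with CCCP; in these 8 no member was called. Of all 36 member tests 7 had an unadjusted p under 0.05, and DESeq2 called 6, of which 5 were RN7SK.

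With nocodazole no member was called in the 10 labelling contrasts. Each construct's labelled libraries were set against the same 4 unlabelled libraries, 2 of 3 min and 2 of 30 min, so the 5 times of a construct share their controls. RN7SK was below 0 in 10 of 10, from -7.01 in OMM at 2 h (SE 2.47, adjusted p = 0.062) to -1.12 in NES at 30 min (SE 1.74, adjusted p = 0.943). How many of all genes did so was not counted. The 20 labelled libraries held 0 to 156 counts of RN7SK, median 16.5, and the 8 unlabelled ones 4 to 1254, median 245.5. At 2 h in OMM it had 2 and 1 counts labelled (0.110 and 0.0406 CPM), below all 4 unlabelled libraries (22.2, 48.3, 5.2 and 0.194 CPM), and labelled replicate 1 there was of low complexity, as were all 4 unlabelled OMM libraries.
The unlabelled OMM replicates at 30 min held 119 and 4 counts, and the NES ones 346 and 10, so the control level itself ranged widely. RN7SL2 was above 0 in 5 and below 0 in 5, from -1.73 (OMM, 2 h) to 1.42 (NES, 6 min; 64.5 and 70.9 CPM labelled against 23.9, 20.2, 23.0 and 29.3 CPM, without overlap, adjusted p = 0.411). RMRP had at most 16 counts and RPPH1 at most 33 in any labelled library. All-gene percentages were 3.1, 3.82, 1.19, 2.19 and 3.15% in NES and 12.9, 15.2, 13.6, 12.2 and 12.7% in OMM at 3, 6, 9 and 30 min and 2 h. Of the 40 member tests 5 had an unadjusted p under 0.05, and DESeq2 called 4, all of them RN7SK.

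**Figure D5:**
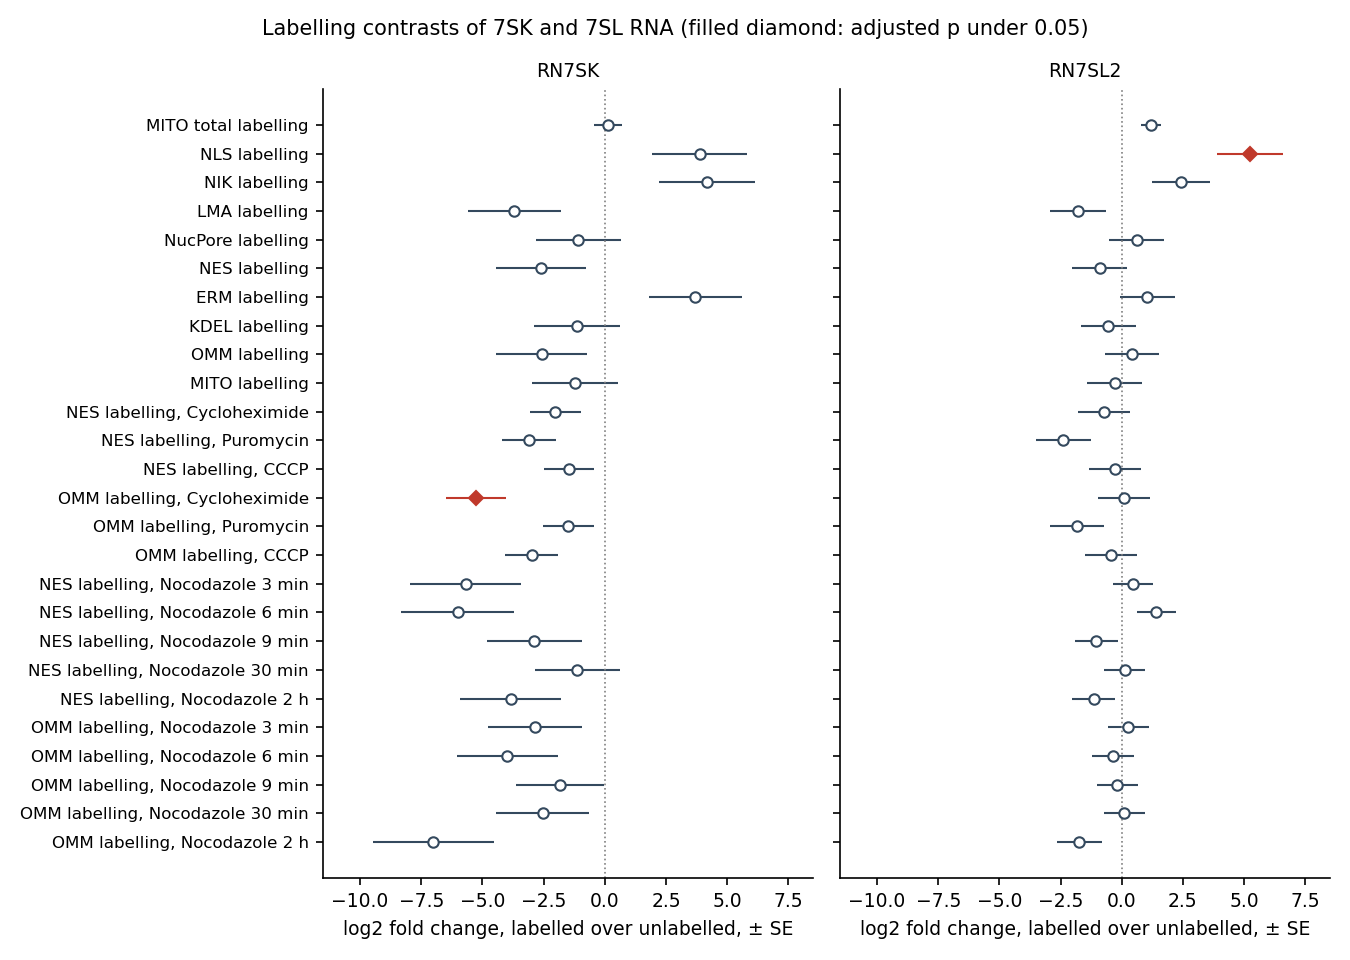
Log2 fold change of labelled over unlabelled libraries for RN7SK (left) and RN7SL2 (right) in every labelling contrast (points, with SE bars; filled diamonds have an adjusted p under 0.05). RN7SL2 is called in NLS at 5.23 and RN7SK in OMM with cycloheximide at -5.27. RN7SK lies below 0 in all 16 contrasts with drugs or nocodazole. How many of all genes do so was not counted, and the nocodazole times of a construct share their controls.

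Across the 36 libraries of the 9 constructs the genes whose log2 CPM ran most like that of each member were found among 12531 genes, by Pearson correlation. All genes were read from the same 36 libraries, which differ in depth and in their level of small RNAs, so both can enter these values. For RN7SL2 they were EML6 (0.70), SNORD3A (U3 small nucleolar RNA, 0.68) and RNF170 (0.67). For RN7SK they were TBPL1 (0.61), GMPSP1 (0.60) and SEMA4A (0.59), for RMRP LMNA (0.64), C17orf113 (0.61) and POLR3E (0.57), and for RPPH1 RN7SK (0.53), IPPK (0.49) and AK3 (0.47). RMRP had 0 counts in 9 labelled and 14 unlabelled of these libraries, and RPPH1 in 13 and 8. Their values thus rest on few libraries with counts. Among the members the pairs ran from 0.55 for RN7SK with RMRP to 0.19 for RPPH1 with RN7SL2. By rank (Spearman) these pairs stood at 0.42 and -0.007. Of the pairs only RMRP with RN7SL2 was higher by rank (0.53 against 0.51). RN7SK was thus among the 3 genes most like RPPH1, and no partner protein's mRNA was among the 3 of any member.

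Per length, in unlabelled MITO total RNA, the order of the members was RN7SK (31695 CPM per kilobase, SD 5529), RN7SL2 (16116, SD 2665), RMRP (917, SD 192) and RPPH1 (535, SD 164), the last over the 638 bases of its counted row. The libraries of neighbours in this order did not overlap. In labelled total RNA the libraries of RN7SK (11037, SD 1923) and RN7SL2 (10364, SD 2361) overlapped. Those of RMRP (278, SD 8.98) and RPPH1 (201, SD 89.8) did not. The RPPH1 ribozyme itself spans 333 bases, and over that length its values per kilobase are higher. The order and the separation of RMRP and RPPH1, unlabelled and labelled, thus depend on the length taken.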

How the data were processed

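The deposited tables of whole-number counts per Ensembl gene were made by the authors; per the submitters' processing notes the tools included Trimmomatic, STAR, HTSeq, SAMtools, bedtools and DESeq2, with the hg38 (GRCh38) build. Their settings, the annotation release, the strand setting and the treatment of reads that match several genes are not given in the sources used here. Per the labels' protocols the libraries were stranded and the shortest RNAs were poorly recovered. A deposited table of log2 fold changes with p-values holds the authors' own comparisons; whether these p-values are adjusted is not stated. It was used only where named.

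Groups came from the sample labels, with 2 replicates in each, and the technical repeat entered no test. Counts were fitted with edgeR 4.0.16 (limma 3.58.1, R 4.3.3): filterByExpr, TMM scaling and a quasi-likelihood fit, without the robust option, over all libraries of a table. Benjamini-Hochberg adjustment was over all genes tested, with a threshold of 0.05. The SE is the size of the log2 fold change divided by the square root of F. Where every library of a group was at 0, counts are given and no fold. Alternatives were DESeq2 1.42.0, other scalings, no filter, each library left out in turn, other controls and a replicate block. Fits that left out a library of the construct, drug or nocodazole tables kept the dispersion trend of the full table; where 1 library was left in a group it was taken to vary like the other groups. The analysis was tested on simulated data. CPM was computed with Python 3.11.15 and pandas 2.3.3. Correlations were computed in R on edgeR's log2 CPM, which includes the TMM scaling.

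Named were the 5 genes, up to 3 called genes in each direction from lists of partner proteins, other small RNAs and compartment landmarks, their neighbours, the leading copies, and the 3 genes most alike over the 36 construct libraries (log2 CPM with a prior count of 2, mean of at least 1 CPM). The members and lists were chosen with earlier results of these data known. Summing all 7SL genes and scaling by library totals alone were alternatives added after seeing the data. No pair of replicate libraries was identical, and the replicate libraries of every group differed by more than sampling noise. Replicates with the same number did not deviate together (correlations from -0.075 to 0.076), so numbers were not taken as pairs. The sequences of 2 of the genes are not reported here.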

Additional observations from a re-analysis of the deposited data

Results flagged for a closer look

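The labelling effect on RN7SL2 differed between the nuclear and the cytosolic construct by the test of the difference itself. The NLS effect exceeded the NES effect by 6.12 on the log2 scale (edgeR, SE 1.72, adjusted p = 0.04997, close to the threshold). RN7SL2 rose in both labelled NLS libraries, which held 112 and 28.8 CPM against 1.31 and 2.29 CPM unlabelled. Both labelled NES libraries were below both unlabelled ones, at 9.38 and 8.86 CPM against 14.7 and 17.1 CPM. NES unlabelled replicate 1 was a low-complexity library. The summed level of other small noncoding RNAs, 28.6 and 17.9 CPM in labelled and 3.75 and 5.83 CPM in unlabelled NLS libraries, moved in the same direction, and its part in the difference was not tested.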

How the results depend on the processing

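Of 1548 values of 96 member results recomputed under alternatives, 74 gained a call, 3 lost one, 2 uncalled values turned direction and were then called, and 108 others changed sign with no call. The 2 that turned were RMRP in LMA and RN7SL2 in NucPore. RMRP had a fitted value of 5.03 against the unlabelled libraries of all 9 constructs. Some of these unlabelled groups, such as NLS and NES, held 0 counts of RMRP. The 5.03 thus rests on empty groups, is no measure of a fold, and is not read as a change of direction. RN7SL2 stood at -6.86 without labelled replicate 2 and at 7.29 without unlabelled replicate 2. The 3 lost calls were RN7SL2 in NLS against NES with library totals alone (6.09, adjusted p = 0.0532), RN7SK in OMM with cycloheximide fitted on its own 4 libraries, and RN7SK in the fractions with no filter.

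Members called in MITO total labelling were 0, and 1 with no filter; leaving out each library gave 0 to 1. In the 9 constructs 1 was called, 5 with DESeq2, 7 with no filter, 2 with each comparison fitted on its own libraries, 11 without low-complexity libraries and 5 with the controls of all 9 constructs; leave-outs gave 1 to 3. For differences between constructs the count was 1, and 2 with DESeq2, 0 with library totals alone, 4 with no filter, 2 with only the libraries compared and 8 without low-complexity libraries; leave-outs gave 1 to 4. In the fractions it was 2, and 1 with no filter. With drugs it was 1, and 6 with DESeq2, 3 with no filter and 2 with only the libraries compared; leave-outs gave 1 to 3. Along nocodazole it was 0, and 4 with DESeq2 and 1 with controls of 3 min only; leave-outs gave 0 to 1. The causes were not tested.

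The replicate block changed no member's call, and 4 uncalled values changed sign. With it RN7SL2 stood at 5.41 in NLS and 1.11 in MITO total labelling, and RN7SK at -5.18 in OMM with cycloheximide and 2.62 in the fractions. The numbers give no pairing by design or by the data.

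RMRP and RPPH1 had few counts or none in most poly(A) libraries. With 2 libraries per group the SE of a member's log2 fold change in the 9 constructs was above 1, so moderate changes could not be called there. RN7SL2 counts cannot be told apart from other 7SL genes at most positions.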
